A study of Mus musculus with 20 samples.

Results

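The levels of 8 marker genes of bile duct cells and of liver progenitor cells, Sox9, Sox4, Krt7, Krt19, Epcam, Prom1, Spp1 and Cftr, were followed in mouse liver. They were chosen by name as members of this class, and all 8 were found among the 46603 gene identifiers of the count files, through their GENCODE M21 symbols. Liver RNA came from 20 samples of male mice aged 2 months in 4 groups of 5. The wild-type (WT) mice were C57BL/6J from a vendor, and the labels give no Cre transgene or floxed allele for them. The knockout mice (EedHepKO, here KO) carried Alb:Cre, a Cre recombinase under the albumin promoter, and Eed alleles with loxP sites at exons 3 and 6, so that functional EED is lost in hepatocytes. Baseline samples of each genotype were lobes 1, 2 and 3, taken out in a partial hepatectomy (PHx). The later samples were lobes 4, 5 and 6 of the regenerating liver, collected at 30 h (1 mouse per genotype), 40 h (2) or 48 h (2). Genotype cannot be told apart from colony of origin, nor the response to PHx from lobe.

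Hepatocytes and the cholangiocytes that line bile ducts arise from a common fetal precursor, the hepatoblast. SOX9 and SOX4 are transcription factors of the cells that take the biliary path, keratins 7 and 19 form their cytoskeleton, and EPCAM and PROM1 lie on their surface. Adult hepatocytes express these genes little, and they can gain some of them in injured liver, where ductular cells also multiply. EED is a core subunit of polycomb repressive complex 2 (PRC2), which methylates histone H3 at lysine 27 and keeps developmental genes silent, often at promoters rich in CG dinucleotides. In bulk tissue a change in the number of cells of a type cannot be told apart from a change in RNA per cell.

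Total counts per library were 21634890 to 30461351. Eed had 2.75 to 7.52 CPM (counts per 1000000 of the TMM-scaled total) in the 10 KO libraries and 14.6 to 23.2 CPM in the 10 WT libraries. The labelled tissue was checked on 14 hepatocyte markers, whose summed level was 48100 to 167000 CPM in single libraries. WT baseline replicate 1 stood apart from the rest of its group over all genes. Its chi-square per gene was 371.4 to 404.2 against the other 4 WT baseline libraries, which differed from each other by 30.05 to 45.2. Its 10 most abundant genes took 30.4% of the counts, against 20.6% to 22.3% in those 4. It also had the highest TMM-scaled level of the WT baseline libraries for Sox4, Krt19, Epcam, Prom1 and Spp1. For Sox4 and Krt19 this did not hold as a share of total counts. Sox4 had 39 of 22978158 counts in it and 49 of 27679930 in replicate 4. Krt19 had 15 counts in it and 18 of 27061864 in replicate 5. Why WT baseline replicate 1 stood apart over all genes was not tested, and the fitted changes of the members that use this library are given with and without it.

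Sequences upstream of 4 members are shown because they span the range of CG content in the set. RefSeq promoter windows on GRCm38.p6 were found for 6 of the 8 members, with 8 start sites. Each run below is the 250 bases before the RefSeq start of transcription, on the strand of the gene, with CG dinucleotides in capitals. The windows lie at chr13:28953700-28953949 (Sox4, minus strand), chr17:87635729-87635978 (Epcam, plus), chr5:104434861-104435110 (Spp1, plus, the first of its starts) and chr6:18170437-18170686 (Cftr, plus).
Sox4: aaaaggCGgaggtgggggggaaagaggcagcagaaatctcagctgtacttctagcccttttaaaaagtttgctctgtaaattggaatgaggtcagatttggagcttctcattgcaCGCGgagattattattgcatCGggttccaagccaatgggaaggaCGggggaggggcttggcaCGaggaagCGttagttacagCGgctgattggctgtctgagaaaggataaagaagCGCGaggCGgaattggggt
Epcam: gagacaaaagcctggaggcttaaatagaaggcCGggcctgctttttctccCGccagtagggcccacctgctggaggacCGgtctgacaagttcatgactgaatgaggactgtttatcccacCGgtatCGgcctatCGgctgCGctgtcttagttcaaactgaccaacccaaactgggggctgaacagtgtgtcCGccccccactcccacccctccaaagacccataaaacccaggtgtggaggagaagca
Spp1: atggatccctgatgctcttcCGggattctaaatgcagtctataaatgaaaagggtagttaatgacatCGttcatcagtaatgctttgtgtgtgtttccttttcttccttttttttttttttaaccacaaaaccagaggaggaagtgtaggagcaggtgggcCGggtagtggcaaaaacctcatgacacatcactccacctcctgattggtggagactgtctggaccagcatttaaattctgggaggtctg
Cftr: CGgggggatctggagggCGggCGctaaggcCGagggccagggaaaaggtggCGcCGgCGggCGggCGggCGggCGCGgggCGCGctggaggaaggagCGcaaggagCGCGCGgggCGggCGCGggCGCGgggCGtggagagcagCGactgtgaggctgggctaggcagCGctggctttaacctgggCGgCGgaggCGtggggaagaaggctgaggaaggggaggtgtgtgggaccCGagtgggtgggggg
The Cftr window held 30 CG dinucleotides, and 5.94% of the 32851 windows of all genes held as many or more. Sox4 had 11 (35.6% of windows as many or more), Epcam 8 (43.0%) and Spp1 3 (71.0%), against a median of 6. Letters searched on both strands were ACAAT or ACAAAG for SOX factors, CATTCC for TEAD factors and TGGGAA for RBPJ. The Sox4 window held the TEAD and the RBPJ letters, which 12.6% and 21.6% of all windows hold. SOX letters stood in the Spp1 window and in 38.8% of all windows.

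**Figure D1:**
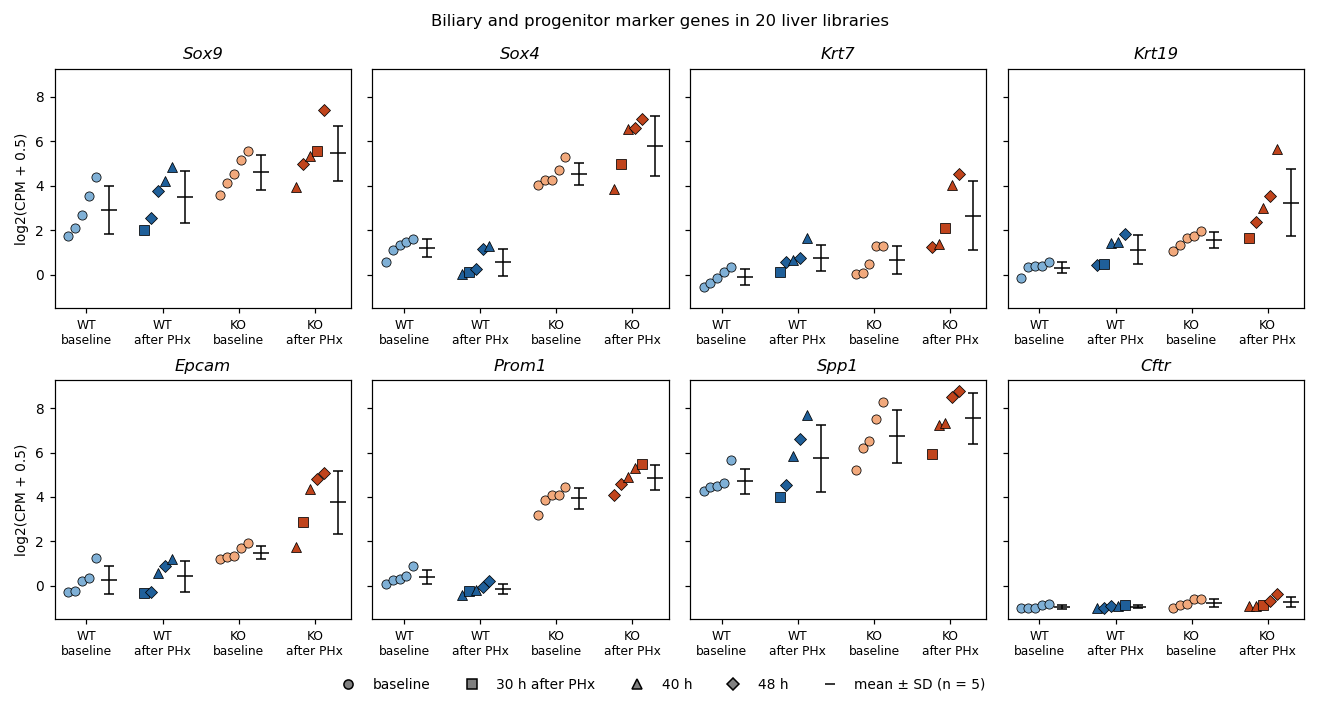
Level of each of the 8 genes in the 20 libraries, as log2(CPM + 0.5), by group, with the symbol giving the time after PHx and the bar the mean ± SD (n = 5). Sox4 and Prom1 have no KO library within the WT range at either stage, and Cftr lies at or near the floor of the scale, with at most 0.270 CPM.

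At baseline, the knockout livers had more transcript of the progenitor marker Prom1, the transcription factor gene Sox4 and the secreted protein gene Spp1 than WT livers. Their means were 18.3, 12.4 and 4.99 times the WT means. In this comparison 3 of the 7 members tested were called higher in KO and 0 lower, and 0 of the 7 had a lower fitted value. A gene is called where the adjusted p of edgeR's quasi-likelihood test is under 0.05 over the 14661 genes tested, of which 11.1% were called higher and 4.89% lower. The median log2 change was 1.71 over the 7 members and -0.03 over all genes tested. Cftr did not pass the filter on low counts.

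Sox4 (ENSMUSG00000076431, mm10 chr13:28948919-28953713, minus strand, 1 exon) acts with Sox9 in bile duct development. Its level at baseline was 2.54, 1.65, 0.978, 2.25 and 2.02 CPM in the WT libraries and 38.1, 18.4, 25.9, 18.5 and 16.1 CPM in the KO libraries. The groups did not overlap, and every KO library was above 16 CPM while no WT library reached 3. The log2 change was 3.64 (SE 0.53, edgeR adjusted p 9.84e-05). The noncoding gene Gm26735 shares 2616 exon bases with Sox4 on the other strand, and it had 13 counts over all libraries.

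Sox9 (ENSMUSG00000000567, chr11:112782224-112787760, plus strand), the factor most used to mark biliary cells, had 2.78 to 20.6 CPM (median 6.00) in WT and 11.6 to 46.3 CPM (median 22.6) in KO at baseline. The KO median was above the highest WT library, WT replicate 4, but 2 KO libraries lay within the WT range. The log2 change of 1.59 (SE 0.66, edgeR adjusted p 0.11) did not pass the threshold.

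The keratin genes were low at this stage. Krt19 (ENSMUSG00000020911, chr11:100140810-100148665, minus strand) had 0.975, 0.750, 0.412, 0.826 and 0.826 CPM in WT and 2.79, 1.56, 2.03, 2.62 and 3.43 CPM in KO. Each KO value was above each WT value, yet the log2 change of 1.71 (SE 0.62, edgeR adjusted p 0.0657) did not pass. Krt7 (ENSMUSG00000023039, chr15:101411043-101430313, plus strand) had 0.183 to 0.750 CPM in WT and 0.517 to 1.97 CPM in KO, ranges that overlap, and differed by 1.41 on the log2 scale (SE 0.70, edgeR adjusted p 0.179).

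Prom1 (ENSMUSG00000029086, chr5:43993620-44102032, minus strand) encodes prominin 1 (CD133), a membrane protein used to sort progenitor cells. At baseline it had 1.37, 0.700, 0.875, 0.550 and 0.734 CPM in WT and 21.4, 8.71, 16.5, 14.2 and 16.6 CPM in KO. The lowest KO library was 6.38 times the highest WT library. The log2 change was 4.21 (SE 0.34, edgeR adjusted p 3.21e-07), which was the largest of the members at this stage. The antisense gene Gm16401 shares 424 exon bases with Prom1 and had 22 counts over all libraries. Epcam (ENSMUSG00000045394, chr17:87635979-87651129, plus strand), an adhesion molecule of biliary epithelium, had 0.321 to 1.89 CPM in WT and 1.83 to 3.25 CPM in KO. Only WT replicate 1 reached the KO range, and the log2 change of 1.59 (SE 0.62, edgeR adjusted p 0.0885) did not pass.

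Spp1 (ENSMUSG00000029304, chr5:104435118-104441050, plus strand) encodes osteopontin, secreted by cholangiocytes and also by macrophages. It had 50.9, 24.2, 18.99, 21.1 and 22.3 CPM in WT and 305.3, 181.7, 90.0, 72.2 and 36.5 CPM in KO at baseline. Of the KO libraries, 4 lay above all WT libraries, and KO replicate 12 lay below WT replicate 1. The log2 change was 2.32 (SE 0.68, edgeR adjusted p 0.0237). Spp1 no longer passed without WT baseline replicate 2 (adjusted p 0.0546), 3 (0.0614), 4 (0.0608) or 5 (0.0573) or without KO baseline replicate 7 (log2 change 1.85, adjusted p 0.0745).

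The number of members called at baseline depended on the fit. It was 6 with DESeq2 and 7 when only the 10 baseline libraries were fitted, where Sox9 (edgeR adjusted p 0.0222), Krt7 (0.0389), Krt19 (0.00066) and Epcam (0.0104) passed too. DESeq2 called 14.6% of all genes higher and 6.14% lower, and the fit of the 10 baseline libraries 21.4% and 18%. Krt19 also passed without KO after PHx replicate 11 (0.00775) or 12 (0.0375), and Epcam without WT baseline replicate 1 (2.15, 0.0355) or KO after PHx replicate 10 (0.0463). With WT baseline replicate 1 left out, 4 members were called, against 9.41% of all genes higher and 3.41% lower. The log2 changes were then 3.76 for Sox4 (edgeR adjusted p 0.00037), 4.43 for Prom1 (1.96e-06) and 2.66 for Spp1 (0.0231). Sox9 (1.40, 0.204), Krt7 (1.53, 0.203) and Krt19 (1.81, 0.0899) did not pass without it either.

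After PHx, 6 of the 7 members tested were called higher in KO than in WT and 0 lower, against 16% of all genes called higher and 8.20% lower. The median log2 change was 3.02 over the 7 members and -0.01 over all genes. Sox4 and Prom1 differed most, followed by Epcam, the keratins and Sox9, and Spp1 did not pass the threshold. Both genotype comparisons use their own libraries, in part of the same mice.

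**Figure D2:**
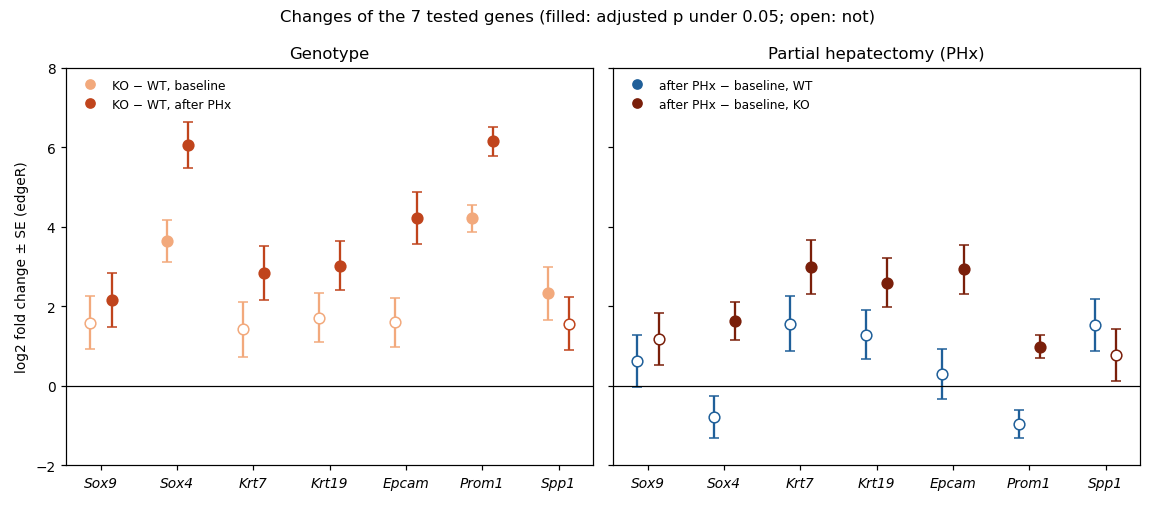
Log2 fold changes ± SE from edgeR for the 7 genes tested, with genotype comparisons on the left and the responses to PHx on the right, filled where the adjusted p is under 0.05. The KO against WT changes after PHx run from 1.56 for Spp1 to 6.15 for Prom1, and none of the WT responses is filled.

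Among the transcription factors, Sox4 had 0.567, 0.522, 1.90, 0.674 and 1.72 CPM in WT after PHx. The KO libraries had 127.5, 95.7, 13.8, 93.7 and 30.9 CPM, for replicates 7, 8, 10, 11 and 12. All KO libraries were above all WT libraries, and 3 of them had 93.7 CPM or more. The log2 change was 6.05 (SE 0.59, edgeR adjusted p 1.4e-06). Sox9 had 3.53, 18.1, 27.8, 13.3 and 5.25 CPM in WT and 169.4, 31.2, 14.95, 40.0 and 46.9 CPM in KO, with KO replicate 10 inside the WT range. Its log2 change was 2.15 (SE 0.67, edgeR adjusted p 0.0244). It no longer passed without KO replicate 7 (log2 change 1.34, adjusted p 0.127), WT replicate 1 (0.0552) or WT replicate 5 (0.0585). Nor did it pass when only the 10 libraries after PHx were fitted (2.17, adjusted p 0.079). In that fit 5 members were called, against 8.12% of all genes higher and 1.57% lower.

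Krt7 had 0.567, 1.09, 2.66, 0.993 and 1.17 CPM in WT after PHx and 1.83, 22.7, 2.06, 16.04 and 3.74 CPM in KO. KO replicates 8 and 11 were far above the rest, while replicates 7 and 10 lay below WT replicate 3. The log2 change was 2.84 (SE 0.68, edgeR adjusted p 0.00479), and 2.17 (adjusted p 0.0223) without KO replicate 8. Krt19 had 0.872, 2.17, 2.28, 0.851 and 3.06 CPM in WT and 4.67, 11.03, 7.51, 49.1 and 2.65 CPM in KO. Its highest library was KO replicate 11, and KO replicate 12, taken at 30 h, lay within the WT range. The log2 change was 3.02 (SE 0.62, edgeR adjusted p 0.00153), and 1.75 (adjusted p 0.0065) without KO replicate 11.

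On the cell surface, Prom1 had 0.349, 0.261, 0.381, 0.461 and 0.653 CPM in WT after PHx and 23.2, 16.5, 29.3, 38.5 and 44.7 CPM in KO, with no overlap. Its log2 change was 6.15 (SE 0.37, edgeR adjusted p 6.19e-09). Epcam had 0.305, 1.00, 1.83, 0.319 and 1.37 CPM in WT and 27.5, 32.9, 2.82, 20.2 and 6.82 CPM in KO, again with no overlap. KO replicate 10 was the lowest KO library for Epcam, as it was for Sox9 and Sox4. The log2 change of Epcam was 4.22 (SE 0.66, edgeR adjusted p 0.00014).

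Spp1 spanned 15.7 to 204.1 CPM (median 57.2) in WT after PHx and 59.8 to 439.4 CPM (median 160.6) in KO. WT replicate 3 exceeded 3 of the 5 KO libraries. The log2 change of 1.56 (SE 0.66, edgeR adjusted p 0.0902) did not pass, and it was 2.28 (adjusted p 0.0197) without WT replicate 3 and 1.55 (adjusted p 0.0444) in DESeq2, which called 18.2% of all genes higher and 10.2% lower.

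Cftr (ENSMUSG00000041301, chr6:18170687-18322768, plus strand) encodes the chloride channel through which cholangiocytes secrete. It had 2 counts over the WT libraries at baseline and 12 over the KO libraries, then 3 and 18 counts after PHx. Counts above 0 were seen in 2, 4, 3 and 5 of the 5 libraries, in that order. As a share of total counts KO was 6.42 times WT at baseline (95% counting interval 1.43 to 59.1) and 6.32 times after PHx (1.85 to 33.5). On the TMM-scaled CPM used for the other genes the ratios of group means were lower, 3.88 and 4.44. These intervals cover counting error only, not the spread between mice. With no filter, edgeR gave adjusted p values of 0.342 and 0.234.

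In WT livers, 0 of the 7 members tested were called higher and 0 lower after PHx by edgeR, against 11.4% and 8.68% of all genes. At an unadjusted p under 0.05, 2 were higher and 1 lower, against 19.2% and 14.8% of all genes. DESeq2 called 1 higher, against 15.5% of all genes higher and 9.88% lower. The median log2 change was 0.62 over the members and 0.04 over all genes. Krt7 (1.56, SE 0.70, edgeR adjusted p 0.121) and Spp1 (1.53, SE 0.66, 0.107) had the highest fitted log2 changes. When only the WT libraries were fitted, Krt7 (1.60, edgeR adjusted p 0.038) and Krt19 (1.32, 0.0408) passed. That fit called 1655 genes higher and 1424 lower of 12775. With the mouse as a replicate block Spp1 passed (log2 change 1.72, adjusted p 0.0293), and it passed too in DESeq2 (1.55, 0.0488). The block fit called 5.90% of all genes higher and 7.31% lower. Without WT replicate 3 after PHx the Spp1 change fell to 0.80 (adjusted p 0.392). In the same mice without the block Spp1 passed too (2.13, edgeR adjusted p 0.0419). The fitted change of Epcam was 0.98 (adjusted p 0.252) with the block and 1.08 (0.264) in the same mice without it. Prom1 (-0.97, SE 0.35, edgeR adjusted p 0.0541) and Sox4 (-0.79, SE 0.52, 0.3) had fitted values below 0. Prom1 passed without WT replicate 4 at baseline (adjusted p 0.0481), WT replicate 5 after PHx (0.0451), KO replicate 8 at baseline (0.0443) or KO replicate 12 after PHx (0.0452), and Krt19 without KO replicate 11 after PHx (0.0299). Without WT baseline replicate 1, 0 members were called, with log2 changes of -0.67 for Sox4 and 1.68 for Krt7. Those of Sox9, Krt19 and Epcam were 0.62, 1.29 and 0.30 with all libraries and 0.43, 1.39 and 0.86 without it. Spp1 (1.87, edgeR adjusted p 0.0831) and Prom1 (-0.74, 0.157) did not pass in that fit.

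In KO livers, 5 of the 7 were called higher after PHx and 0 lower, against 17.5% and 12.1% of all genes. The median log2 change was 1.63 over the members and 0.10 over all genes. Krt7 rose most (log2 change 2.98, SE 0.68, edgeR adjusted p 0.00454), then Epcam (2.93, SE 0.62, 0.00292) and Krt19 (2.59, SE 0.61, 0.00506). Sox4 (1.63, SE 0.47, edgeR adjusted p 0.0163) and Prom1 (0.97, SE 0.29, 0.0178) rose less, and Sox9 (1.18, adjusted p 0.171) and Spp1 (0.77, adjusted p 0.374) did not pass. Without KO replicate 7 after PHx the Sox9 change was 0.35 (adjusted p 0.701). With the mouse as a replicate block 3 members were called, against 10.8% of all genes higher and 11.7% lower. Sox4 (1.35, edgeR adjusted p 0.0676) and Krt19 (1.85, 0.0504) were then not, and the change of Krt7 was 2.36 (0.0239). Leaving out KO replicate 7 after PHx ended the call of Sox4 (1.34, adjusted p 0.0543), and leaving out replicate 12 that of Prom1 (0.79, 0.0521). The changes of Krt7 and Krt19 fell to 2.32 (adjusted p 0.0184) without replicate 8 and to 1.34 (0.0245) without replicate 11.

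**Figure D3:**
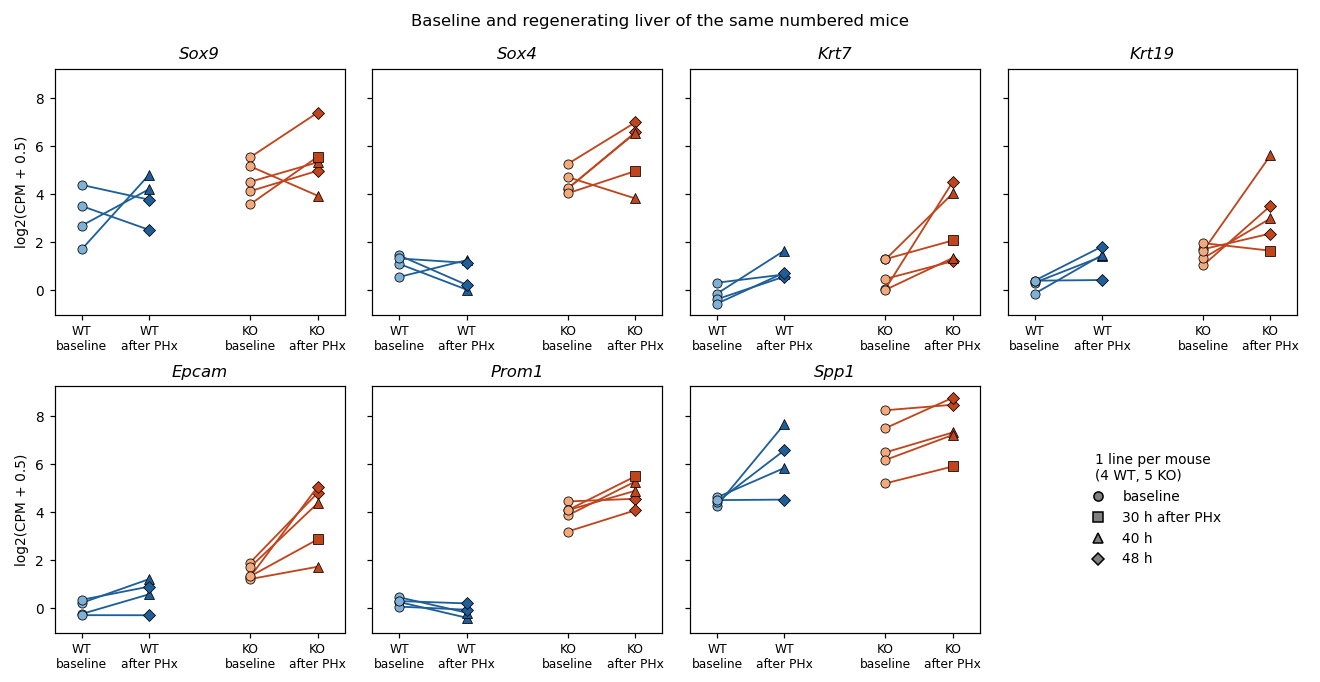
Level at baseline and after PHx, as log2(CPM + 0.5), in the 4 WT and 5 KO mice with a number at both stages, 1 line per mouse. Prom1 falls along each of the 4 WT lines and climbs along each of the 5 KO lines, and the Krt7 and Spp1 lines climb in all 9 mice. The WT values of Prom1 rest on 6 to 19 counts, and the falls in WT mice 4 and 5 appear only after TMM scaling.

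Single mice, compared as log2(CPM + 0.5) after PHx minus baseline, showed how unevenly these changes were shared. Prom1 was lower after PHx in 4 of 4 WT mice (-0.66 to -0.10) and higher in 5 of 5 KO mice (0.11 to 1.41). The WT values of Prom1 rest on 6 to 19 counts per library. In WT mice 4 and 5 the counts were 12 and 16 at baseline and 13 and 19 after PHx. The falls in these mice thus appear only after TMM scaling. Epcam was higher in 5 of 5 KO mice, by 0.51 in mouse 10 and by 3.75 in mouse 8. Sox4 was higher in 4 of 5 KO mice (0.92 to 2.35) and lower in mouse 10 (-0.89). That mouse also had the one Sox9 value that was lower after PHx in KO (-1.23). Krt19 was higher in 4 of 5 KO mice, most in mouse 11 (3.99), and slightly lower in mouse 12 (-0.32). In WT, Krt19 (0.03 to 1.61), Krt7 and Spp1 were higher in 4 of 4 mice. Epcam was higher in 3 of 4 WT mice, Sox9 in 2 of 4 and Sox4 in 1 of 4.

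The test of whether the response to PHx differed between genotypes called 0 of the 7 members higher and 0 lower in edgeR, against 0.164% and 0.225% of all genes. At an unadjusted p under 0.05, 3 were higher and 0 lower, against 7.33% and 6.02% of all genes. DESeq2 called 2 higher, against 1.28% of all genes higher and 1.21% lower. The median difference was 1.42 on the log2 scale over the members and 0.00 over all genes. With the mouse as a replicate block 0 were called and the members' median was 0.47. Epcam, Krt7 and Krt19 then had differences of 1.52, 0.47 and 0.37, and Sox4 and Prom1 of 1.99 and 1.66. The same mice without the block gave 0 called and a median of 1.115. Epcam, Krt7 and Krt19 had 1.835, 1.115 and 1.026 in that fit, and Sox4 and Prom1 2.13 and 1.65. In the fit of all libraries Prom1 came closest (difference 1.94, edgeR adjusted p 0.0652), and DESeq2 called it (1.94, 0.0129) and Sox4 (2.40, 0.0321). Without KO replicate 10 after PHx, edgeR called Sox4 (2.68, adjusted p 0.0183), Prom1 (1.95, 0.0266) and Epcam (2.89, 0.0377), against 2.76% of all genes higher and 1.98% lower. Without WT baseline replicate 1 it called 0 members, and the difference for Prom1 was 1.71 (adjusted p 0.126). Sox4, Epcam, Krt7, Krt19, Sox9 and Spp1 had differences of 2.42, 2.63, 1.42, 1.31, 0.57 and -0.76 with all libraries. Without that library these were 2.29, 2.06, 1.30, 1.203, 0.75 and -1.11. The difference for Spp1 was -0.04 without WT replicate 3 after PHx. That for Krt7 was 0.72 without KO replicate 8 after PHx, that for Krt19 -0.00041 without KO replicate 11, and that for Sox9 -0.32 without KO replicate 7 and -0.02 without WT replicate 4 at baseline. So 5 genes passed the threshold in KO and not in WT, without a called difference between the genotypes in the fit of all libraries. Of these, Krt7 and Krt19 passed in WT too when only the WT libraries were fitted.

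Levels were compared between genes per kilobase of exon. In WT at baseline Spp1 was highest with 16.7 ± 8.02 CPM per kb (SD, n = 5) and Sox9 next with 2.14 ± 1.76. The other 6 had means between 0.003 for Cftr and 0.408 for Krt19, and the ranges of Krt19, Sox4 and Epcam overlapped, as did those of Epcam, Prom1 and Krt7 in turn. In KO after PHx Spp1 again had the highest mean, 142 ± 96.2 CPM per kb (SD, n = 5), though its lowest library, 36.3, lay below the highest of Sox9, 41.0. Sox4 (15.1 ± 9.99), Sox9 (14.6 ± 15), Epcam (8.23 ± 5.91), Krt19 (8.08 ± 10.4), Prom1 (4.24 ± 1.59) and Krt7 (1.32 ± 1.35) followed, each overlapping the next, and Cftr was last at 0.0133 ± 0.0131. Sox4 thus stood 4th of the 8 in WT at baseline and 2nd in KO after PHx, not separated from Sox9.

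Within groups, some members varied together from library to library. After each group's mean was subtracted from log2(CPM + 0.5), Pearson's r over 20 libraries was 0.86 for Sox4 with Epcam and 0.65 for Krt7 with Krt19. It was -0.05 for Sox4 with Prom1, although their r with the group means kept was 0.93. These are descriptions over libraries that share groups and mice.

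**Figure D4:**
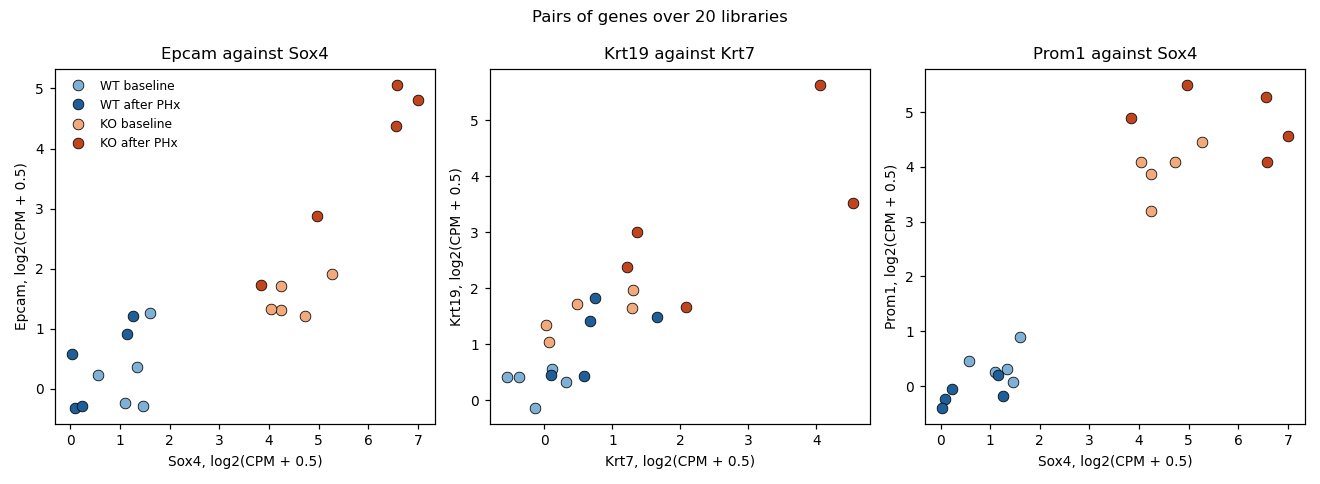
Level of Epcam against Sox4, Krt19 against Krt7 and Prom1 against Sox4 in 20 libraries, each as log2(CPM + 0.5), coloured by group. Epcam follows Sox4 inside the KO group after PHx, whereas for Prom1 and Sox4 r is -0.05 once the means of the 4 groups are removed.

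The genes most like each member, by Pearson's r of log2(CPM + 0.5) over the same 20 libraries, were picked as the 3 highest among the genes tested. For Sox4 they were Tbx20 (r 0.97), Slc25a36 (0.97) and Enah (0.97), and for Prom1 Tbx15 (0.97), Cdhr2 (0.97) and Htra1 (0.97). Epcam was matched best by the epithelial transcription factor gene Ehf (0.96), with Galnt3 (0.96) and Ralgds (0.96). Krt7 was closest to Sult2b1 (0.93), Sdcbp2 (0.92) and the integrin gene Itgb4 (0.91), and Krt19 to Lynx1 (0.94), Nyap1 (0.94) and Dapp1 (0.93). Sox9 had Rgs2 (0.87), Lif (0.86) and Tox2 (0.86), and Spp1 had Cpe (0.92), Ttc26 (0.91) and the macrophage gene Gpnmb (0.90). With group means removed r was 0.85 for Ehf with Epcam and 0.90 for Cpe with Spp1, but -0.06 for Tbx15 with Prom1. Tbx15 had 0 CPM in all WT libraries at baseline and 5.59 and 13.8 CPM on average in KO at baseline and after PHx.

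Other biliary and epithelial genes were described from lists written for this tissue. Their counts stand beside 11.1% of all genes called higher and 4.89% lower at baseline, and 16% and 8.20% after PHx. Scaling by library size alone called 24% and 0.771% of all genes at baseline and 26.6% and 2.02% after PHx. Of 27 tested genes for cholangiocyte structure and surface, 9 were called higher and 0 lower in KO at baseline, and 14 higher and 1 lower after PHx. The 28 genes of the list summed to 2545 to 3073 CPM in WT and 3701 to 5111 CPM in KO at baseline. After PHx the sums overlapped, at 3540 to 7155 and 4515 to 6906 CPM. Clu alone had a median of 1793 CPM in WT at baseline, against 2804 for the sum, so the sum rests largely on this gene. The baseline count was 18 with library size alone, 14 with DESeq2, 14 without the 30 h libraries, 19 of 23 tested with only the samples compared, and 6 to 11 with single libraries left out. The tight junction gene Cldn7 had 0.210 ± 0.392 CPM in WT and 12.7 ± 2.61 in KO at baseline (SD, n = 5), or 6.06 higher on the log2 scale (SE 0.88, edgeR adjusted p 9.75e-05). The keratin gene Krt23 had 1.28 ± 0.397 and 18.9 ± 7.31 CPM (SD, n = 5), which is 3.89 higher on the log2 scale (SE 0.64, edgeR adjusted p 0.000327). After PHx the protease inhibitor gene Spint1 had 0.246 ± 0.120 CPM in WT and 36.1 ± 36.5 in KO (SD, n = 5), or 7.19 higher on the log2 scale (edgeR adjusted p 9.5e-06). Sorbs2 was the 1 called lower (-1.06, edgeR adjusted p 0.0113), but 0 genes of the list were called lower with library size alone or with only the samples compared.

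Of 9 tested genes for cholangiocyte transport and secretion, 3 were called higher and 0 lower in KO at baseline, and 3 and 1 after PHx. With library size alone 5 were called higher at each stage, and with only the samples compared 5 at baseline and 2 after PHx. The chloride channel gene Ano1 had log2 changes of 1.86 (edgeR adjusted p 0.00764) and 2.74 (0.000285). The bile acid uptake gene Slc10a2 was the one called lower, after PHx (-1.43, edgeR adjusted p 0.0132), and 0 of the list were called lower without WT replicate 5 after PHx or with only the samples compared. Of 13 tested biliary and epithelial transcription factors and regulators, 6 were called higher and 1 lower at baseline and 7 higher and 1 lower after PHx. The ETS factor gene Elf3 had log2 changes of 4.87 (edgeR adjusted p 0.00179) and 4.86 (0.000573), and Onecut2, a factor of early biliary development, fell by 1.05 (adjusted p 0.00197) and 1.10 (0.000856) on the log2 scale.

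Of 14 tested genes of progenitor cells and ductular reactions, 9 were called higher and 1 lower in KO at baseline and 7 and 1 after PHx. The fetal factor gene Sall4 had 0 CPM in all WT libraries at baseline and 0.812 ± 0.268 CPM in KO (SD, n = 5, edgeR adjusted p 6.8e-05). Zbtb20, a repressor of the fetal programme in adult liver, fell by 1.28 (edgeR adjusted p 0.0101) and 1.89 (0.000345) on the log2 scale. For the 4 lists in turn the median log2 change in KO was 1.40, 0.75, 1.73 and 1.84 at baseline and 1.11, 0.90, 3.45 and 1.21 after PHx, against -0.03 and -0.01 over all genes. With library size alone, 0 genes of the 4 lists were called lower at baseline, Onecut2 and Zbtb20 included.

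Markers of other liver cells moved with genotype beside these genes. Of 14 macrophage markers, 8 were called higher in KO at baseline and 4 after PHx, with 0 lower at both stages. With only the samples compared these counts were 14 and 0, and the second was 2 without WT replicate 5 after PHx. Their summed level was 234.3 to 388.4 CPM in WT and 612.5 to 784.1 CPM in KO at baseline, then 121.8 to 501.5 and 213.0 to 574.4 CPM after PHx. Of 14 stellate cell and fibroblast markers, 9 and 5 were called higher and 0 lower, and their sums were 183.4 to 305.7, 486.2 to 665.6, 210.2 to 268.0 and 316.8 to 557.7 CPM in the same order. Library size alone gave 12 and 9 of these markers higher, and only the samples compared 12 and 1. None of the genes of these lists was at 0 in any library. Of 14 hepatocyte markers 0 were called higher and 4 and 3 lower, with sums of 146500 to 167000 CPM in WT and 88090 to 117300 in KO at baseline, then 87670 to 140200 and 48100 to 115000 CPM after PHx. The baseline count of 4 hepatocyte markers called lower was not stable. It was 0 without WT baseline replicate 5 or KO baseline replicate 7 or 10. It was 1 without WT baseline replicate 1, 3 or 4, WT after PHx replicate 5 or KO baseline replicate 8, and 2 without WT baseline replicate 2, WT after PHx replicate 4 or KO baseline replicate 11. Library size alone gave 1 hepatocyte marker higher and 0 lower at baseline, and 1 and 2 after PHx. With no filter 0 were lower at baseline, and with only the samples compared 7 were lower at baseline and 0 after PHx. Without KO replicate 12 after PHx the later count was 5. Their part in the results for the 8 genes was not tested.

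Mesothelial cells, which line the liver surface, also carry keratins. The 6 mesothelial markers summed to 0.400 to 1.29 CPM in WT and 1.10 to 3.85 CPM in KO at baseline, with 1 of 4 tested called higher. After PHx the sums were 0.217 to 4.26 and 2.03 to 4.69 CPM, with 1 called higher and 0 lower, and Upk1b was at 0 in all WT libraries at baseline. Their part in the keratin results was not tested. Of 10 endothelial markers 1 was called higher and 0 lower at each stage, and of 6 tested lymphocyte markers 0 were called in either direction. With single libraries left out, the baseline counts of higher calls ranged from 0 to 2 for each of the mesothelial, endothelial and lymphocyte lists. After PHx they ranged from 0 to 1 for the mesothelial and endothelial lists, and with no filter 0 endothelial markers were called at either stage. Endothelial markers called higher at baseline were 5 with library size alone and 6 with only the samples compared. None of the 8 pancreatic acinar markers passed the filter, and their sum was at most 0.734 CPM.

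**Figure D5:**
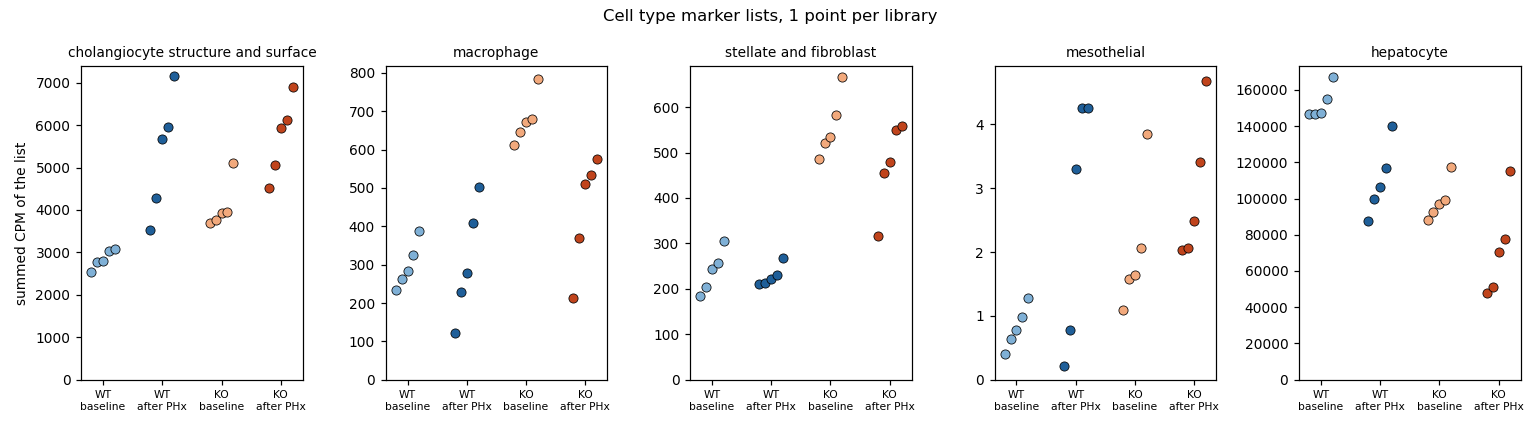
Summed CPM of 5 marker lists in each library, with linear axes that start at 0. Macrophage and stellate sums of the KO baseline libraries lie above all WT baseline libraries, and hepatocyte sums lie below them. In WT at baseline the cholangiocyte sum rests largely on Clu.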

How the data were processed

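Poly(A) RNA of 20 liver samples was sequenced paired-end. The deposited files hold raw counts per Ensembl gene, 1 file per library, which the authors made from uniquely mapped reads on mm10, per the labels and the design text. The design text names fastp 0.20.0 for trimming and the submitters' processing notes name Trimmomatic 0.36, both with FastQC 0.11.5. The aligner, counting program, strand setting and annotation are not given in the sources used here, so reads of overlapping genes on opposite strands cannot be told apart.

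Counts were fitted with edgeR 4.0.16 in R 4.3.3 (TMM, filterByExpr, 4 group means over all 20 libraries, quasi-likelihood test, two-sided, Benjamini-Hochberg over 14661 genes). DESeq2 1.42.0, other scalings and filters, fits of only the samples compared, a mouse block and each library left out were the alternatives. The code was tested on simulated counts. SE is the log2 change divided by the root of F. Symbols, coordinates and exon lengths came from GENCODE M21, and promoters from RefSeq on GRCm38.p6. Library totals of 21634890 to 30461351 counts leave genes under 1 CPM with few counts.

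The members and lists were chosen with earlier results of these data known. Named genes are all 8 members, the 3 genes most like each, and from each list up to 2 called genes at each end of a comparison. The pairing of mice comes from the labels, which number 9 mice at both stages, and residual correlations were -0.05 to 0.15 for same numbers and -0.23 to 0.26 for different ones. Each number is taken as 1 mouse. WT baseline replicate 1 has no number in its title and was left out of the block and of the changes per mouse.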

Additional observations from a re-analysis of the deposited data

Results flagged for a closer look

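In 32 groups of 5 values (8 genes in 4 groups), 4 single libraries stood apart from the rest of their group by Dixon's criterion at 95%. Chance gives about 1 in 20 groups only for normally distributed values. The criterion was applied to CPM without a log scale, and each of the 4 was the highest of its group. Their number can therefore not be set against that rate. Sox9 had 169.4 CPM in KO after PHx replicate 7, with the next library at 46.9 CPM. Krt19 had 49.1 CPM in KO after PHx replicate 11, with the next at 11.03 CPM. Krt7 had 2.66 CPM in WT after PHx replicate 3, with the next at 1.17 CPM. Spp1 had 50.9 CPM in WT baseline replicate 1, with the next at 24.2 CPM, and this is the sample whose title carries no mouse number. That library also stood apart from its group over all genes, and the cause was not tested. It was the highest WT baseline library for Epcam and Prom1, and for Sox4 and Krt19 on TMM-scaled CPM only.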

How the results depend on the processing

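Of 1008 refits of single members under alternatives, 954 kept the direction and the side of the threshold, 15 lost the call, 35 gained it and 4 changed sign. Many of these refits leave out a library of a group that is not compared, which moves the fitted change little. The 954 is thus not a measure of stability. The members called in KO against WT at baseline numbered 3, but 6 with library size alone, 6 with DESeq2 and 7 with only the samples compared. In the WT response the count of 0 became 1 with library size alone, 1 with DESeq2, 2 with only the samples compared, 1 with the replicate block and 1 with the 30 h libraries dropped. The same mice without the block also gave 1, against 1326 genes higher and 1084 lower of 14977. Library size alone called 3796 of all 14661 genes higher and 582 lower in WT. Only the samples compared called 1655 and 1424 of 12775 genes. Dropping the 30 h libraries called 1887 and 1504 of 14884. In the KO response the replicate block lowered the count from 5 to 3. The same mice without it gave 5, against 2515 genes higher and 1652 lower of 14977. Between these fits of the same mice the block changed no other call of a member. The difference between the responses had 0 called and 2 with DESeq2. With single libraries left out the counts ranged from 2 to 4 at baseline and 5 to 7 after PHx. They ranged from 0 to 1 in the WT response, 4 to 5 in the KO response and 0 to 3 for the difference. The ranges are given without the share of all genes called in each fit. In fits with a single library left out the log2 change of Epcam in WT ranged from -0.0622 to 0.86. The difference of responses ranged from -0.32 to 1.00 for Sox9 and from -0.00041 to 1.57 for Krt19. The negative values came without WT replicate 3 after PHx for Epcam, without WT replicate 4 at baseline or KO replicate 7 after PHx for Sox9 and without KO replicate 11 after PHx for Krt19. The cause was not tested.

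Dropping the 30 h libraries and fitting the same mice unblocked were chosen after seeing the data. Without the 30 h libraries Sox9 after PHx (1.99, edgeR adjusted p 0.0582) and Prom1 in the KO response (0.79, 0.0544) were not called. Scaling by library size alone moved the median over all genes up, on the log2 scale, by 0.48 and 0.38 for genotype and by 0.36 and 0.27 for the responses in WT and KO. Called genes were then 3521 higher and 113 lower at baseline in place of 1631 and 717, 3897 and 296 after PHx in place of 2342 and 1202, 3796 and 582 in WT in place of 1677 and 1273, and 4059 and 961 in KO in place of 2561 and 1770. No member changed its sign under this scaling. Depth limits Cftr, with 35 counts in all libraries, to pooled counts.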
